A study of Vitis vinifera with 36 samples.

Results

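In the de-seeded berries of 2 table grape varieties, 13 of the 28119 genes listed in any library were found in the ‘Victoria’ grapes and were at or near 0 in the ‘Muscat Hamburg’ grapes. They were chosen by their FPKM values (aligned fragments divided by transcript length and by the mapped reads of the library). The mean of the 3 replicates had to be at least 1 in all 6 ‘Victoria’ groups and under 0.1 in all 6 ‘Muscat Hamburg’ groups, with a gene missing from a list set to 0. The difference between the varieties therefore chose these genes and is only described here, without a test. The same rule with the varieties exchanged found 12 genes.

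‘Victoria’ is a white and ‘Muscat Hamburg’ a black table grape, and both were grown in southern China under rain shelters, grafted on the rootstock SO4. The vines bore 2 crops in the cycle of 2014, and the berries of the summer season were compared with those of the winter season. Berries were taken at the onset of veraison (E-L 35), when softening and colouring begin, at its completion (E-L 36) and at harvest (E-L 38), stages of the modified Eichhorn-Lorenz scale. The 12 groups of variety, season and stage had 3 biological replicates each, which gave 18 libraries of either variety. All groups shared the rootstock, the shelter and the removal of the seeds, and each replicate was a pool of berries from many vines of the same vineyard, so the spread between replicates does not cover other vineyards or years. According to the paper, the vines were pruned and treated with hydrogen cyanamide after the summer harvest to bring on the winter crop. The seasons thus differed in this treatment, in crop order, in calendar time and in weather, and the effects of these cannot be told apart.

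Grape varieties are propagated as cuttings, so each keeps its own set of alleles. They are known to differ in which gene copies their chromosomes carry and in the sequence of those copies. Reads of both varieties were aligned to a reference genome derived from ‘Pinot Noir’, a wine grape. An FPKM value counts aligned reads, so a gene that is not transcribed, a gene that is absent and a gene whose sequence is too different to align cannot be told apart. No name or product was paired with the 13 identifiers in the sources used here, and they are given as the files spell them, without a role.

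Library totals were 5624449 to 18606068 estimated counts (median 10599908). The variety labels were checked with genes of anthocyanin synthesis. VviUFGT, which adds glucose to anthocyanidins, was at 6.35 to 12.99 FPKM in the ‘Victoria’ libraries and 18.8 to 75.0 in the ‘Muscat Hamburg’ libraries. VviAOMT, which methylates anthocyanins, was at 0 to 0.59 against 8.08 to 28.7, and Vvi3AT, which acylates them, at 0 to 0.34 against 0.38 to 3.15. No library lay in the range of the other variety for these genes. Summer season replicate 1 of ‘Victoria’ at E-L 36 stood apart from its group, with a chi-square per gene of 57.8 and 55.3 against the other replicates and 3.5 between those. Winter season replicate 1 at E-L 38 likewise had 19.99 and 19.8 against 1.45, and results that rest on these libraries are also given without them. The pair at 1.45 was the closest of all replicate pairs, and whether it came from fully independent pools was not tested.

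Most of the 13 genes were expressed at a low level. Their median FPKM, averaged over the ‘Victoria’ groups, was 2.80, and that of all 14427 genes with a mean of at least 1 in every ‘Victoria’ group was 12.4. VIT_200s0279g00100 was the exception, with a mean FPKM of 139. This gene ranked 621 among those 14427 genes, and it took 63.5% of all reads on the 13 genes in the ‘Victoria’ libraries. VIT_200s0238g00090 followed with a mean of 11.7 FPKM. The other 11 genes lay between 1.54 and 4.34 FPKM, close to the lower limit of the rule.

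The read counts behind these levels differed widely. VIT_200s0279g00100 had 206 to 1953 estimated counts in a ‘Victoria’ library (median 701), and VIT_200s0238g00090 had 95.8 to 586 (median 346). VIT_205s0020g01795 had 8 to 127 counts (median 33.0), and VIT_205s0029g01480 had 14.5 to 94.6 (median 29.3). The depth was therefore ample for the first pair of genes and moderate for the second. At the low end, VIT_213s0175g00040 had 0.99 to 9 counts and VIT_200s0163g00070 had 0 to 15. VIT_213s0175g00040 was at 3 counts or fewer in 10 of the 18 libraries, and VIT_200s0163g00070 in 8. VIT_200s0163g00070 was also the single gene of the 13 with a ‘Victoria’ library at 0 (winter season, E-L 36, replicate 3), and the other 12 were listed in all 18.

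The genes were short. Their listed transcript lengths ran from 183 to 2530 bases with a median of 491, against a median of 1809 for the genes with a mean of at least 1 in every ‘Victoria’ group and 1473 for all listed genes. Under 500 bases were 7 of the 13 genes, against 5.8% of the former and 13% of the latter. A lower FPKM limit of 1 asks for fewer reads on a short gene. On CPM, read counts scaled to the library total but not to length, the same limits chose 13 genes, of which only 4 were among the 13 described here (VIT_200s0279g00100, VIT_205s0020g01795, VIT_212s0035g01322 and VIT_212s0142g00780).

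In the ‘Muscat Hamburg’ grapes, 6 of the 13 genes had no read in any of the 18 libraries. For these, 3 counts over the 18 libraries together, or 0.0149 CPM, was taken as the floor. VIT_200s0279g00100 was at least 5476-fold higher in the pooled ‘Victoria’ libraries than this floor. The same bound was 64.1-fold for VIT_209s0002g09230, 61.3-fold for VIT_210s0042g00110, 54.3-fold for VIT_215s0021g00510, 34.8-fold for VIT_200s0163g00070 and 26.7-fold for VIT_213s0175g00040. VIT_215s0021g00510 is outside the rule for named genes and was added after its values were seen, so that each of the 13 is accounted for. These bounds follow the depth on each gene, and a smaller one is not a sign of more expression in ‘Muscat Hamburg’ berries.

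The other 7 genes were not strictly absent from the ‘Muscat Hamburg’ libraries. VIT_200s0238g00090 had 18.2 counts in all, spread over 12 of the 18 libraries, and its pooled CPM was 315 times as high in the ‘Victoria’ libraries. VIT_212s0142g00780 had 8.74 counts over 10 libraries, and the ratio was 62.4. VIT_205s0029g01480 had 8.86 counts over 6 libraries with a ratio of 77.3, and VIT_205s0020g01795 had 6 counts over 5 libraries with a ratio of 145. For all 7 genes the name "expressed only in ‘Victoria’" thus holds at the limits of the rule and not for every library. The remaining 3 genes each had reads in a single ‘Muscat Hamburg’ library and their ratios are correspondingly loose. The ratio was 228 (95% counting interval 48.3 to 10764) for VIT_215s0107g00360, 144 (23.2 to 5238) for VIT_209s0054g01100 and 458 (81.8 to 18147) for VIT_212s0035g01322. These intervals and the floor cover counting error only, since reads were pooled over the 18 libraries of a variety. The rule chose the genes by this same difference, so high ratios were fixed in advance and are a description only.

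**Figure D1:**
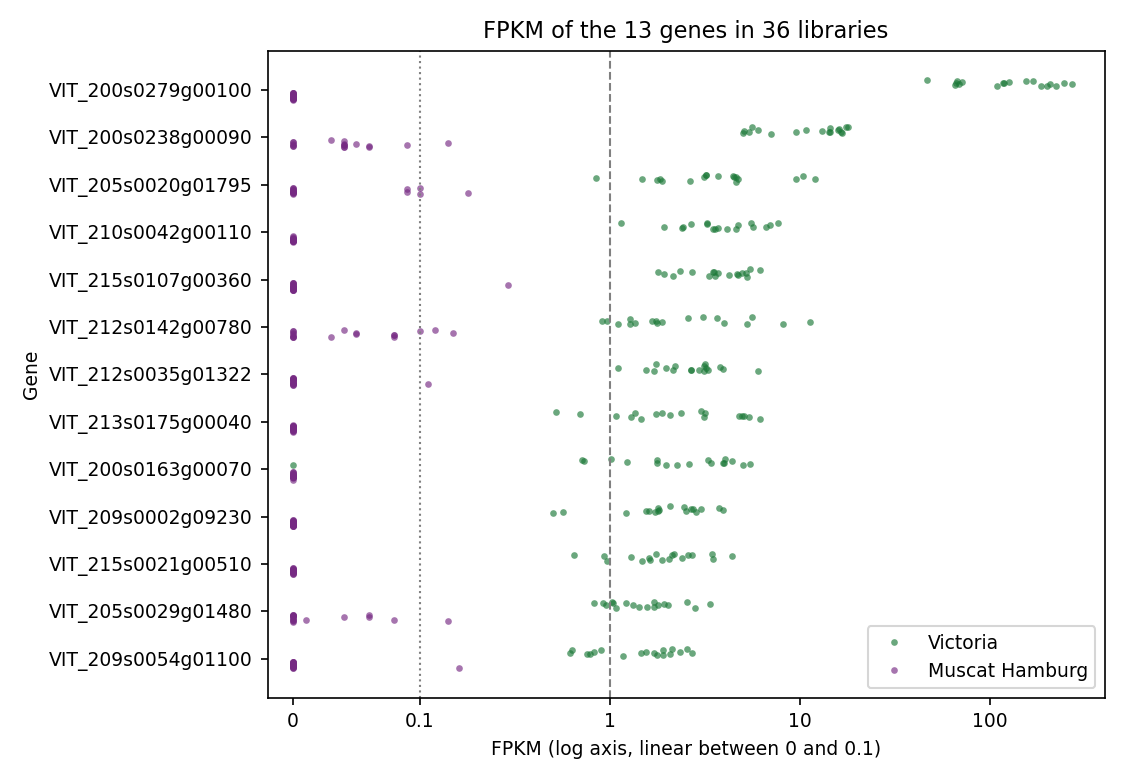
FPKM of each of the 13 genes (rows, ordered by mean FPKM) in the 18 ‘Victoria’ (green) and 18 ‘Muscat Hamburg’ (purple) libraries, 1 point per library, on a log axis that is linear between 0 and 0.1; the dotted and dashed lines mark the limits of 0.1 and 1. VIT_200s0279g00100 lies between 46.6 and 270 in ‘Victoria’ and at 0 in every ‘Muscat Hamburg’ library, and single points of the lower genes cross the limits, which apply to group means.

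Close to the lower limit, the lowest ‘Victoria’ group mean was 1.09 FPKM for VIT_205s0029g01480, 1.12 for VIT_209s0054g01100 and 1.31 for VIT_212s0142g00780. VIT_200s0270g00130 at 0.98, VIT_216s0039g01960 at 0.89 and VIT_205s0165g00266 at 0.89 fell just outside it. Close to the upper limit, the highest ‘Muscat Hamburg’ group mean was 0.097 for VIT_215s0107g00360, 0.073 for VIT_200s0238g00090 and 0.067 for VIT_205s0029g01480. VIT_200s0187g00240 at 0.117, VIT_209s0070g00590 at 0.12 and VIT_219s0014g00600 at 0.12 fell just outside. The mean of VIT_215s0107g00360 came from a single winter season library of E-L 35 at 0.29 FPKM.

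Estimated counts need not be whole where a read fits several genes. Of the 13 genes, 9 had counts that were not whole numbers in at least 1 library (69.2%), against 27.6% of the genes with a mean of at least 1 in every ‘Victoria’ group. The values of these 9, among them VIT_200s0279g00100, VIT_200s0238g00090 and VIT_212s0142g00780, are uncertain where near-identical copies share reads with them. The counts of VIT_200s0163g00070, VIT_205s0020g01795, VIT_210s0042g00110 and VIT_212s0035g01322 were whole in every library. VIT_200s0238g00090 was the only gene of the 13 listed with more than 1 transcript.

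The rule did not ask for a season or stage difference within ‘Victoria’, but it was not independent of them. Its floor of 1 FPKM in every ‘Victoria’ group left out any gene that came below 1 in a single season and stage, so a fall in a gene close to 1 could hardly be seen among the 13. VIT_215s0021g00550, for example, was at 0 in every ‘Muscat Hamburg’ library and at 1.45 to 3.25 FPKM over the summer season means of ‘Victoria’. Its ‘Victoria’ winter season mean was 1.82 at E-L 35 but 0 at E-L 36 and E-L 38, so it was not chosen. It had only 30 counts over all ‘Victoria’ libraries together. The tests below are therefore given for single genes, and the counts and medians over the 13 genes are descriptions limited by this floor. At each stage, berries of the winter season were set against those of the summer season by the quasi-likelihood test of edgeR with Benjamini-Hochberg adjustment over the 19736 genes kept. A gene was past the threshold at an adjusted p of at most 0.05 with a fold change of at least 2. The test covered 11 of the 13 genes, and VIT_200s0163g00070 and VIT_213s0175g00040 were below its count filter. In whole berries, fewer cells of a type and less RNA per cell cannot be told apart.

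At E-L 35, 1 of the 11 genes was upregulated and none was downregulated in the winter season berries, where 17.3% of all tested genes were past the threshold, 8.44% upregulated and 8.87% downregulated. By DESeq2 the counts were also 1 and 0, and at an unadjusted p under 0.05 by edgeR 1 gene was lower, VIT_205s0029g01480 (log2 fold change -0.85, SE 0.40). The gene past the threshold was VIT_212s0142g00780. Its FPKM was 0.96, 1.27 and 1.77 in the 3 summer season libraries and 5.58, 11.3 and 8.15 in the 3 winter season libraries. Every winter season library was higher than every summer season library. The means were 1.33 ± 0.41 and 8.33 ± 2.84 FPKM (SD, n = 3 each), and the log2 fold change was 2.78 (SE 0.38, adjusted p = 2.49e-06, edgeR quasi-likelihood test).

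The other genes at this stage included the most abundant one. VIT_200s0279g00100 was at 207, 167 and 126 FPKM in the summer season libraries and 116, 117 and 109 in the winter season libraries, with a log2 fold change of -0.39 (SE 0.21, adjusted p = 0.141, edgeR). VIT_200s0238g00090 was at 14.4, 13.01 and 9.53 against 16.7, 14.4 and 10.8 FPKM, and these ranges overlapped (log2 fold change 0.33, SE 0.19, adjusted p = 0.162, edgeR). The median log2 fold change of the 11 genes was 0.11, beside -0.01 for all tested genes, and had no stable sign. It ran from -0.19 without winter season replicate 3 to 0.24 without summer season replicate 1, and was -0.11 without summer season replicate 3, -0.05 with scaling by library size alone and -0.14 over all 13 genes without the count filter. The summer season libraries of this stage were deeper, with totals of 15334749 to 18606068 against 5624449 to 9397265 in the winter season. The part of depth in these values was not tested.

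At E-L 36, 5 of the 11 genes were past the threshold, of which 1 was higher and 4 were lower in winter season berries. Of all tested genes 23.6% were past it, 9.96% upregulated and 13.6% downregulated. The downregulated genes were VIT_200s0238g00090, VIT_200s0279g00100, VIT_205s0020g01795 and VIT_205s0029g01480, and VIT_212s0142g00780 was again upregulated. The median log2 fold change of the 11 genes was -0.15, beside -0.02 for all tested genes. With single libraries left out it ran from -0.31 without summer season replicate 2 to -0.12 without winter season replicate 1. It was -0.50 in a fit of the ‘Victoria’ libraries alone and -0.14 over all 13 genes by DESeq2. Without summer season replicate 1, which stood apart, 5 genes were again past the threshold, and their log2 fold changes were -1.66 for VIT_200s0238g00090, -1.24 for VIT_200s0279g00100, -1.42 for VIT_205s0020g01795, -1.35 for VIT_205s0029g01480 and 1.93 for VIT_212s0142g00780.

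VIT_200s0279g00100 was at 243, 154 and 185 FPKM in the summer season libraries of E-L 36 and at 71.1, 66.1 and 68.2 in the winter season libraries. The seasons did not overlap, and the winter season libraries were close to each other. The means were 194 ± 45.2 and 68.5 ± 2.53 FPKM (SD, n = 3 each), with a log2 fold change of -1.47 (SE 0.21, adjusted p = 2.08e-05, edgeR quasi-likelihood test).

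VIT_200s0238g00090 was at 14.2, 17.8 and 17.5 FPKM in the summer season and 5.07, 5.36 and 5.58 in the winter season. All winter season libraries were again below all summer season libraries. The log2 fold change was -1.58 (SE 0.20, adjusted p = 1.96e-07, edgeR quasi-likelihood test, n = 3 each).

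VIT_205s0020g01795 was more variable, at 10.3, 3.19 and 4.51 FPKM in the summer season and 1.76, 1.48 and 0.85 in the winter season. The high summer season mean of 6.003 ± 3.79 (SD, n = 3) was raised by replicate 1, yet the other summer season libraries also lay above the winter season libraries. The log2 fold change was -2.12 (SE 0.55, adjusted p = 0.00253, edgeR quasi-likelihood test).

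VIT_205s0029g01480 was at 1.08, 3.37 and 2.53 FPKM against 1.43, 1.03 and 0.82, and the seasons overlapped. The log2 fold change was -1.01 (SE 0.39, adjusted p = 0.0363, edgeR quasi-likelihood test), barely past the fold limit. The call rested on single libraries. It was lost without summer season replicate 2 (-0.69, adjusted p = 0.203), summer season replicate 3 (-0.94, adjusted p = 0.0927), winter season replicate 2 (-0.97, adjusted p = 0.0944) or winter season replicate 3 (-0.85, adjusted p = 0.133).

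VIT_212s0142g00780 was at 1.75, 1.10 and 1.28 FPKM in the summer season and 3.66, 5.29 and 3.99 in the winter season of E-L 36, without overlap. The log2 fold change was 1.67 (SE 0.39, adjusted p = 0.00093, edgeR quasi-likelihood test, n = 3 each).

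At E-L 38, 2 of the 11 genes were past the threshold and both were downregulated, where 26.8% of all tested genes were past it, 10.9% upregulated and 15.9% downregulated. By DESeq2 there were also 2 downregulated and 0 upregulated genes, and at an unadjusted p under 0.05 by edgeR 1 gene was higher. The median log2 fold change of the 11 genes was -0.51, beside -0.04 for all tested genes. VIT_200s0279g00100 was at 199, 270 and 221 FPKM in the summer season libraries and at 46.6, 67.3 and 65.5 in the winter season libraries. The seasons were far apart, with means of 230 ± 36.3 and 59.8 ± 11.5 FPKM (SD, n = 3 each). The log2 fold change was -1.94 (SE 0.22, adjusted p = 8.46e-07, edgeR quasi-likelihood test).

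VIT_200s0238g00090 was at 15.9, 16.5 and 16.0 FPKM in the summer season and at 5.03, 5.98 and 7.01 in the winter season of E-L 38. Here too the seasons did not overlap. The log2 fold change was -1.42 (SE 0.20, adjusted p = 7.66e-07, edgeR quasi-likelihood test, n = 3 each). Without winter season replicate 1, which stood apart, it was -1.26, that of VIT_200s0279g00100 was -1.75, and both were still past the threshold. This check kept only winter season replicates 2 and 3, the closest of all replicate pairs.

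Another 3 genes had a log2 fold change near or beyond the limit at E-L 38 without passing the test. VIT_205s0020g01795 was at 1.88, 9.48 and 11.9 FPKM against 4.71, 2.63 and 3.2 (log2 fold change -1.17, SE 0.51, adjusted p = 0.0535, edgeR). Its summer season replicate 1 lay below every winter season library, and without that library the value was -1.65 (adjusted p = 0.00356). VIT_210s0042g00110 was at 6.60, 6.93 and 5.52 FPKM against 1.15, 2.40 and 4.69 (log2 fold change -1.16, SE 0.54, adjusted p = 0.0786, edgeR). Its seasons did not overlap in FPKM, but a ‘Victoria’ library held only 2 to 21 counts of this gene. Without winter season replicate 3, its highest winter season library, the value was -1.81 (adjusted p = 0.0272, edgeR). No other single library left out at E-L 38 gave a call for VIT_205s0020g01795 or VIT_210s0042g00110, and DESeq2 called neither. VIT_212s0142g00780 was at 1.35, 1.67 and 0.91 against 3.07, 2.58 and 1.89 FPKM, again without overlap (log2 fold change 0.89, SE 0.41, adjusted p = 0.0704, edgeR).

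No gene of the 13 was past the threshold in the same direction at all 3 stages. The remaining tested genes, which passed the threshold in no season comparison, were VIT_209s0002g09230, VIT_209s0054g01100, VIT_210s0042g00110, VIT_212s0035g01322, VIT_215s0021g00510 and VIT_215s0107g00360. Their log2 fold changes ran from -1.16 to 0.79 over the stages, with standard errors of 0.39 to 0.62. At this precision a change of 2-fold in them could often be missed, so the lack of a call does not show the lack of a change.

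**Figure D2:**
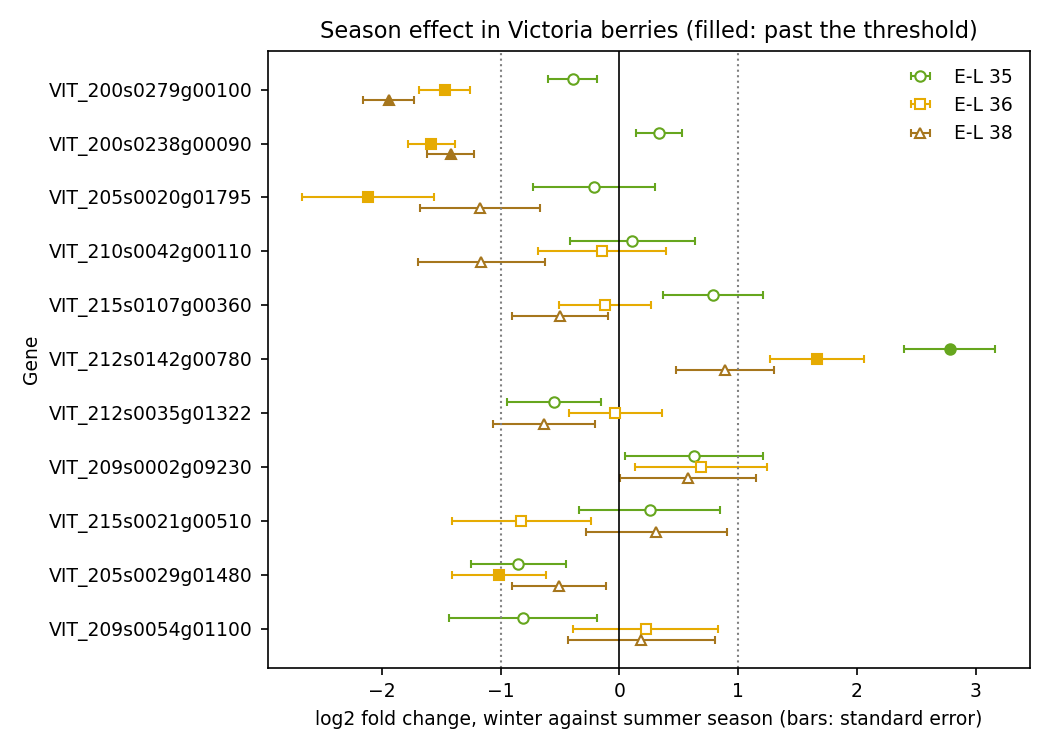
Log2 fold change of the winter against the summer season berries of ‘Victoria’ for the 11 tested genes (rows, ordered by mean FPKM) at E-L 35 (circles), E-L 36 (squares) and E-L 38 (triangles), with bars of 1 standard error; filled symbols are past the threshold and dotted lines mark a 2-fold change. VIT_212s0142g00780 lies at 2.78 and 1.67 at the first stages, and VIT_200s0279g00100 and VIT_200s0238g00090 lie between -1.94 and -1.42 at the later ones.

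For 3 of the 11 genes the season effect differed between the onset of veraison and harvest. The effect at E-L 38 minus that at E-L 35 was tested as 1 contrast, and these 3 were past the threshold with a lower value at E-L 38. Their share of 27.3% was close to that of all tested genes, of which 25.2% were past it, 10.3% with a higher and 14.9% with a lower value. The difference was -1.75 for VIT_200s0238g00090 (SE 0.28, adjusted p = 9.58e-06, edgeR quasi-likelihood test, 3 libraries per group), whose season effect went from 0.33 to -1.42. It was -1.55 for VIT_200s0279g00100 (SE 0.30, adjusted p = 0.000468), whose effect went from -0.39 to -1.94. For VIT_212s0142g00780 it was -1.89 (SE 0.56, adjusted p = 0.00803), and there the positive effect of 2.78 came down to 0.89. The median over the 11 genes was -0.96, beside -0.01 for all tested genes, but it rested on few libraries. It was -0.36 without winter season replicate 3 of E-L 35, -0.49 without summer season replicate 3 of E-L 38 and -0.58 without winter season replicate 1 of E-L 35. Over all 13 genes it was -0.10 without the count filter and -0.10 by DESeq2.

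The stage steps within a season were tested as well. Of the 3 genes whose season effect differed, only VIT_200s0238g00090 was past the threshold in a step. Between E-L 35 and E-L 36, in summer season berries, 1 of the 11 genes was upregulated and none downregulated, where 16.6% of all tested genes were past the threshold, 7.08% upregulated and 9.54% downregulated. VIT_215s0107g00360 was at 1.80, 2.70 and 2.14 FPKM at E-L 35 and at 5.26, 3.58 and 5.45 at E-L 36. DESeq2 also called 0 downregulated genes here, and none of the 11 was lower at an unadjusted p under 0.05 by edgeR. The stages did not overlap for VIT_215s0107g00360, and its log2 fold change was 1.39 (SE 0.39, adjusted p = 0.00772, edgeR quasi-likelihood test, n = 3 each), or 1.28 without summer season replicate 1 of E-L 36, still past the threshold. This gene had 6.64 to 24.6 counts in a ‘Victoria’ library.

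In the winter season berries the same step moved 1 of the 11 genes past the threshold, which was downregulated, where 18.9% of all tested genes were past it, 6.65% upregulated and 12.2% downregulated. VIT_200s0238g00090 was at 16.7, 14.4 and 10.8 FPKM at E-L 35 and at 5.07, 5.36 and 5.58 at E-L 36. Every library of the later stage was lower, and the log2 fold change was -1.25 (SE 0.20, adjusted p = 1.19e-05, edgeR quasi-likelihood test, n = 3 each). In the summer season berries the log2 fold change of this gene over the same step was 0.66 (SE 0.19, adjusted p = 0.00554), which was under the fold limit. VIT_200s0279g00100 had -0.60 in the winter season (SE 0.21, adjusted p = 0.0303) and 0.48 in the summer season (SE 0.21, adjusted p = 0.0685), both under the fold limit. VIT_212s0142g00780 had -0.80 in the winter season (SE 0.36, adjusted p = 0.0723). Without winter season replicate 1 of E-L 35 it was -1.02 (adjusted p = 0.0418), so the count of genes past the threshold became 2.

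From E-L 36 to E-L 38 none of the 11 genes passed the threshold in either season by edgeR. In the summer season 0.218% of all tested genes were past it, 0.0304% upregulated and 0.187% downregulated, and 0 of the 11 had an unadjusted p under 0.05 by edgeR, 0 by DESeq2 and 1 by limma on log2(FPKM + 1). The 43 calls over all genes behind this share rested on single libraries. They became 566 without replicate 1 of E-L 36, 5 without its replicate 2, 8 without its replicate 3 and 3 without replicate 2 of E-L 38, while the count among the 11 genes was 0 each time. In the winter season 5.59% of all tested genes were past it, 1.41% upregulated and 4.18% downregulated. Of the 11 genes, 3 had an unadjusted p under 0.05 by edgeR, with no call. By DESeq2 2 of all 13 genes had one, also with no call, but only 9 of the 13 received an adjusted p. In edgeR those 3 were VIT_205s0020g01795 at 1.29, VIT_212s0035g01322 at -0.90 and VIT_212s0142g00780 at -0.83 on the log2 scale.

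**Figure D3:**
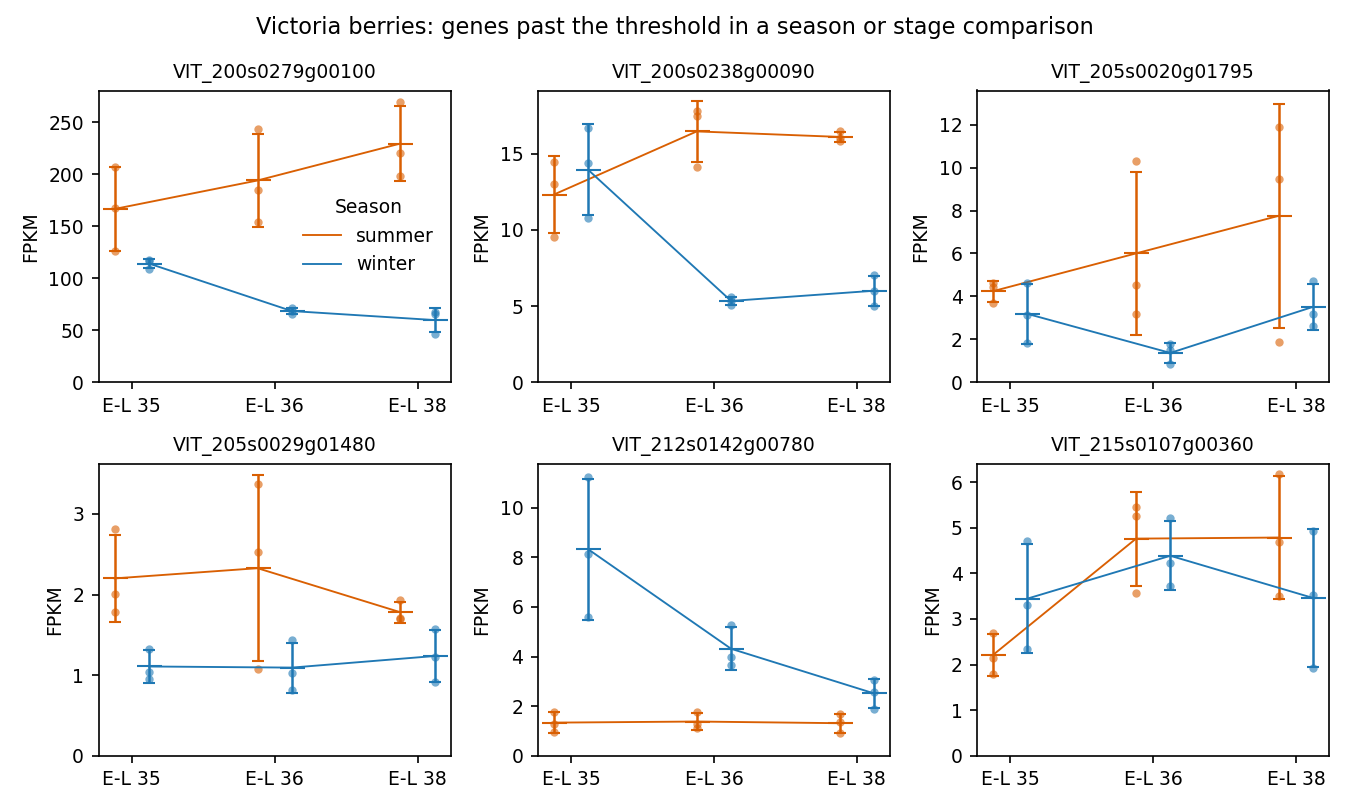
FPKM of the 6 genes past the threshold in a season or stage comparison in ‘Victoria’ berries of the summer (orange) and winter (blue) seasons by stage; points are libraries, dashes are means of 3 replicates and bars are 1 SD. VIT_200s0279g00100 was at 167 and 114 at E-L 35 and at 230 and 59.8 at E-L 38 in the summer and winter seasons, and VIT_212s0142g00780 stayed between 1.31 and 1.38 in the summer season.

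Over the 6 ‘Victoria’ groups the highest group mean was 1.88 to 6.36 times the lowest. VIT_212s0142g00780 had the ratio of 6.36, VIT_205s0020g01795 followed with 5.69 and VIT_200s0279g00100 with 3.84. The median coefficient of variation between replicates ran from 14.4% for VIT_200s0238g00090 and 17.5% for VIT_200s0279g00100 to 59.6% for VIT_200s0163g00070. VIT_213s0175g00040, the gene with the fewest counts, was at 56.4%. VIT_209s0002g09230 had 0.50 to 3.95 FPKM over the 18 libraries (median 1.95), VIT_209s0054g01100 0.62 to 2.69 (median 1.63) and VIT_215s0021g00510 0.65 to 4.41 (median 1.97). VIT_212s0035g01322 had 1.10 to 6.03 FPKM (median 2.81), and VIT_213s0175g00040 0.52 to 6.14 (median 2.21). VIT_200s0163g00070 had 0 to 5.44 FPKM (median 2.44).

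The identifiers carry a chromosome code, a block of the assembly and a number that rises along the block, and these were read as positions because no coordinates were used here. The 13 genes carried 7 of the 20 chromosome codes and lay in 13 different blocks of 956, so no pair of them shared a block. The code 0, used for sequence not placed on a chromosome, held 3 of the 13 genes (23.1%) and 8.72% of all listed identifiers. The codes 5, 9, 12 and 15 held 2 genes each, and the codes 10 and 13 held 1 each. By their identifiers, the 13 genes thus formed no cluster within a block. Distances between blocks were not available, so closeness across blocks could not be judged.

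Their neighbours were examined next. Within a number difference of 50 in the same block lay 99 other identifiers. The ‘Victoria’ and ‘Muscat Hamburg’ group means overlapped for 74 of them (74.7%), against 85.5% of the 28007 identifiers that were neither among the 13 genes nor their neighbours. All 6 ‘Victoria’ means were above all 6 ‘Muscat Hamburg’ means for 12 (12.1% against 4.1%), and 8 of the 13 genes had such a neighbour. The share of other genes with such a neighbour was not computed. All ‘Muscat Hamburg’ means were higher for 3 (3.0% against 2.1%), and both varieties were near 0 for 10 (10.1% against 8.3%). These shares were not tested, since neighbours of a block are not independent of each other. Higher levels in every ‘Victoria’ group were thus more frequent among the neighbours than elsewhere. Of these 12, counts were not whole in 14 to 18 ‘Victoria’ libraries for VIT_200s0238g00130, VIT_205s0029g01440, VIT_205s0029g01470, VIT_205s0029g01515, VIT_212s0035g01324, VIT_212s0035g01326, VIT_212s0142g00760, VIT_212s0142g00800 and VIT_213s0175g00030. The number was 1 for VIT_200s0163g00050 and 0 for VIT_205s0020g01760 and VIT_215s0021g00460. The part of reads shared between copies in this excess was not tested. Overlapping levels were less frequent than elsewhere, though still the largest class in both sets. VIT_205s0020g01795, for example, lay between VIT_205s0020g01790 and VIT_205s0020g01800, whose mean FPKM was 20.5 and 19.2 in ‘Victoria’ against 20.7 and 13.99 in ‘Muscat Hamburg’. The neighbours named here were chosen after their values were seen.

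Some neighbours were also low throughout ‘Muscat Hamburg’. With all ‘Muscat Hamburg’ means under 0.1 and a ‘Victoria’ mean of at least 0.5, a limit set after the values were seen, there were 5 of the 99 neighbours (5.1%), beside 4 of the 13 genes, against 72 of the 28007 other identifiers (0.3%). VIT_212s0035g01324 and VIT_212s0035g01326 followed VIT_212s0035g01322 directly. Their mean FPKM was 0.62 to 2.58 and 0.54 to 2.82 over the ‘Victoria’ groups, and both were at 0 in all 18 ‘Muscat Hamburg’ libraries. VIT_212s0035g01326 was downregulated in the winter season berries of E-L 38 (log2 fold change -1.73, SE 0.67, adjusted p = 0.0384, edgeR quasi-likelihood test), where VIT_212s0035g01322 had -0.64 (SE 0.43, adjusted p = 0.221). VIT_200s0163g00050, at 0.40 to 1.99 FPKM in the ‘Victoria’ groups and 0 in every ‘Muscat Hamburg’ library, was separated from VIT_200s0163g00070 by VIT_200s0163g00060, which was at 24.8 and 20.6 FPKM in ‘Victoria’ and ‘Muscat Hamburg’. VIT_205s0029g01440, near VIT_205s0029g01480, was at 0.28 to 1.08 FPKM over the ‘Victoria’ group means and at most 0.017 over those of ‘Muscat Hamburg’. The last of the 5, VIT_215s0021g00550 near VIT_215s0021g00510, had reads in only 11 of the 18 ‘Victoria’ libraries and was at 0 in both later winter season groups, so its ‘Victoria’ means overlapped those of ‘Muscat Hamburg’. Counts were not whole in 15 ‘Victoria’ libraries for each of VIT_212s0035g01324 and VIT_212s0035g01326 and in 17 for VIT_205s0029g01440. The number was 1 for VIT_200s0163g00050 and 0 for VIT_215s0021g00550. Whether these neighbours share reads with other copies was not tested.

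Next to VIT_212s0142g00780, 2 neighbours were also upregulated in winter season berries. VIT_212s0142g00760 was at 0.72, 0.87 and 1.21 FPKM in the summer season libraries of E-L 35 and at 2.81, 8.24 and 6.21 in the winter season libraries, without overlap. Its log2 fold change was 2.75 (SE 0.43, adjusted p = 1.08e-05, edgeR quasi-likelihood test, n = 3 each), beside 2.78 for VIT_212s0142g00780. At E-L 36 it was 1.76 (SE 0.45, adjusted p = 0.00176) beside 1.67, and at E-L 38 it was 1.19 (SE 0.46, adjusted p = 0.0305) beside 0.89. Its ‘Muscat Hamburg’ group means were 0.013 to 0.16 FPKM and its lowest ‘Victoria’ group mean was 0.79, so it lay outside both limits of the rule. VIT_212s0142g00800 was also upregulated at E-L 35 (1.54, SE 0.57, adjusted p = 0.0368) and E-L 36 (1.73, SE 0.69, adjusted p = 0.0435), though its ‘Victoria’ level was low. The counts of VIT_212s0142g00780 and VIT_212s0142g00800 were not whole in any of the 18 ‘Victoria’ libraries, and those of VIT_212s0142g00760 were not whole in 17. Whether these neighbours share reads with VIT_212s0142g00780 or with each other was not tested.

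In the opposite direction, VIT_200s0279g00050, VIT_205s0029g01430 and VIT_209s0054g01080 lay near 3 of the 13 genes and were higher in every ‘Muscat Hamburg’ group. VIT_200s0279g00050 was at 4.62 to 11.3 FPKM over the ‘Muscat Hamburg’ group means and 0 to 1.38 over the ‘Victoria’ means, near VIT_200s0279g00100, which was at 0 in ‘Muscat Hamburg’. VIT_205s0029g01430 was at 1.51 to 4.34 against 0.017 to 0.30 FPKM. VIT_209s0054g01080 was at 0.70 to 6.65 against 0 to 0.077 FPKM. Each of these blocks thus held an identifier higher in either variety within the number difference of 50.

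**Figure D4:**
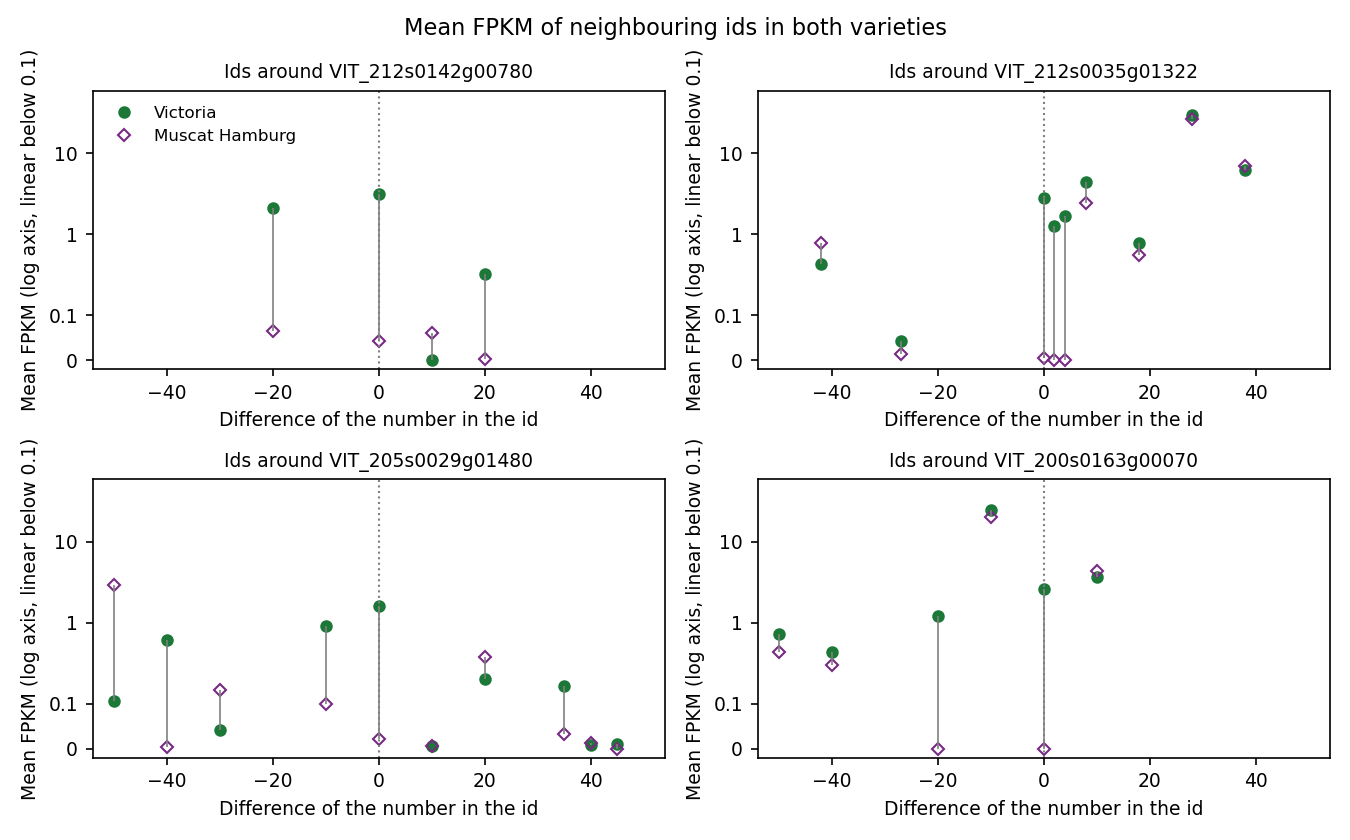
Mean FPKM over the 6 groups of ‘Victoria’ (filled green) and ‘Muscat Hamburg’ (open purple) for the identifiers within a number difference of 50 of 4 of the 13 genes, on a log axis that is linear below 0.1; the dotted line marks the gene itself and grey lines join the varieties. VIT_212s0035g01324 and VIT_212s0035g01326 lie beside VIT_212s0035g01322 with ‘Muscat Hamburg’ at 0, while VIT_200s0163g00060 lies at 24.8 and 20.6 between the genes at 0.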

How the data were processed

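RNA-seq was performed on de-seeded berries, with 36 libraries in 12 groups assigned from the sample labels. According to the methods of the study, the authors aligned single-end reads to a reference genome of grapevine, and the submitters' processing notes name Bowtie. Each deposited list holds expected counts per gene, without normalization and not always whole, and the FPKM values that the authors computed. A counting program is not given in the sources used here. Genes missing from a list were set to 0. Another FPKM table was left out because the headings of its 36 columns named no labelled sample.

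The 13 genes were chosen on deposited FPKM. Estimated counts were rounded, and edgeR 4.0.16 (R 4.3.3) was used to test them (filterByExpr, which kept 19736 of 28119 genes, TMM, 12 groups in 1 quasi-likelihood fit, common dispersion 0.0294, Benjamini-Hochberg adjustment). The standard error of a log2 fold change was its size over the square root of F. Counts within 0.001 of a whole number were taken as whole. The genes, the lists and the tests were chosen with earlier results of these data known. Named genes were the 10 with the highest mean FPKM, those with the highest and lowest log2 fold change past the threshold in each comparison, and the 3 on either side of each limit. The alternatives were DESeq2 1.42.0, limma 3.58.1 (trend) with log2(FPKM + 1) or log2(FPKM + 0.1), RLE, library size alone, no filter, other thresholds, the replicate number as a block and each library left out. The fits were tested on simulated counts. No replicate pair was closer than sampling noise, the lowest chi-square per gene being 1.45, for winter season replicates 2 and 3 of ‘Victoria’ at E-L 38. The winter season pairs of ‘Victoria’ at E-L 36 were all low, at 1.61, 1.78 and 1.62, against 3.5 to 57.8 in the summer season. Whether such close libraries were fully independent pools was not tested. A planned grouping by product names and a check for seed genes were not made, because 0 of the identifiers matched the reference table.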

Additional observations from a re-analysis of the deposited data

Results flagged for a closer look

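The season effect in ‘Victoria’ differed between E-L 35 and E-L 38 for 3 of the 11 tested genes, by the edgeR quasi-likelihood test of the difference itself (25.2% of all tested genes were past the threshold). The difference on the log2 scale was -1.75 for VIT_200s0238g00090, -1.55 for VIT_200s0279g00100 and -1.89 for VIT_212s0142g00780. Over the 22 alternatives it stayed between -1.91 and -1.46 for VIT_200s0238g00090, between -1.74 and -1.36 for VIT_200s0279g00100 and between -2.15 and -1.36 for VIT_212s0142g00780, past the threshold in each. At E-L 35 the summer season libraries of ‘Victoria’ were deeper than all of its winter season libraries, and the part of depth in these differences was not tested.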

How the results depend on the processing

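The number of genes chosen depended on the limits. It was 35 with a lower limit of 0.5 FPKM, 4 with 2 FPKM, 7 with an upper limit of 0.05 and 51 with 0.5. With the limits asked of every single library it was 2 (VIT_200s0279g00100 and VIT_210s0042g00110). Leaving out each replicate number gave 12 to 16 genes, of which 9 to 11 were among the 13. No tested log2 fold change reversed its sign under an alternative while called. The count of genes past the threshold at E-L 35 was 2 with scaling by library size alone, by the addition of VIT_205s0029g01480 (-1.01, adjusted p = 0.0495, edgeR). For the summer season step between E-L 35 and E-L 36 it was 2 without the fold change condition and 0 with limma on log2(FPKM + 1), where VIT_215s0107g00360 was at 0.84. In the winter season this step gave 2 without the fold change condition and 1 to 2 when a library was left out. Leaving out a library gave 4 to 5 genes at E-L 36, 2 to 3 at E-L 38, 1 at E-L 35 and 3 for the change of the season effect. The call of VIT_205s0029g01480 at E-L 36 was lost in 8 of 16 alternatives. VIT_210s0042g00110 at E-L 38 was called with limma on log2(FPKM + 1) at -1.08 and on log2(FPKM + 0.1) at -1.38.

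The replicate numbers did not pair the libraries, since the 21 correlations of same-numbered deviations ran from -0.48 to 0.03 and in 2 of them a library correlated best with its own number. With the replicate number as a block, VIT_205s0029g01480 was no longer called at E-L 36 (-0.99, adjusted p = 0.0476, edgeR) and VIT_205s0020g01795 was called at E-L 38 (-1.25, adjusted p = 0.0495, edgeR), which gave 4 and 3 genes, and no other call changed. Over all genes, the median log2 fold change went under scaling by library size alone from -0.01 to -0.17 at E-L 35 (1326 upregulated and 2318 downregulated), from -0.04 to -0.29 for the summer season step to E-L 36 (977 and 2973), from -0.01 to -0.15 for the winter season step (1046 and 2826) and from -0.01 to 0.16 for the change of the season effect (2653 and 2438). Over all genes, dropping the fold change condition raised the calls from 3416 to 8346 at E-L 35, from 4654 to 10038 at E-L 36 and from 5284 to 10751 at E-L 38. Depth limited the genes with few counts. Without the filter the log2 fold changes of VIT_200s0163g00070 and VIT_213s0175g00040 had standard errors of 0.77 to 1.28, and neither was past the threshold in any comparison.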
